A study of Mus musculus with 12 samples.

Results

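The lesioned brain hemisphere of mice with inducible dickkopf-1 (DKK1) was compared with that of wild-type mice by RNA sequencing, 3 libraries against 3. These 6 of the 12 libraries were taken by genotype and hemisphere from the labels. All mice had ischemic stroke from occlusion of the middle cerebral artery (MCAo) and all received doxycycline (200 mg/kg), with induction 3 days after MCAo and tissue taken at 28 days. The DKK1 mice carried 3 alleles, Gt(ROSA)26Sortm1.1(rtTA,EGFP)Nagy, Hprttm1(tetO-Dkk1)Spdl and Tg(TCF/Lef1-lacZ)34Efu/J, which are a doxycycline-dependent activator at ROSA26, a tetO-Dkk1 transgene at Hprt and a reporter of TCF/Lef1 activity. The other mice were C57BL6/J. The libraries of the ipsilateral (lesioned) side are called wild-type lesion and DKK1 lesion 1 to 3 by the replicate numbers in the labels, and each genotype also had 3 libraries of the contralateral (intact) side. No group carried the alleles without doxycycline, so the effect of induced Dkk1 and that of the alleles with their genetic background cannot be told apart. ROSA26 is active in most cell types, so the labels tie the activator to no single cell type. The labels give neither the age nor the animal behind each library, and p-values therefore measure how these libraries scatter, which may partly be technical.

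DKK1 is a secreted protein that binds the Wnt co-receptors LRP5 and LRP6, with Kremen proteins as further partners, and so blocks signalling through beta-catenin. In the adult brain this pathway is best known for keeping the blood-brain barrier of endothelial cells closed. An ischemic lesion fills over weeks with lipid-laden phagocytes, is walled off by reactive astrocytes and fibroblast matrix, and takes in B and T lymphocytes. Microglia and macrophages in such a lesion raise genes of lysosomes, complement, antigen presentation and lipid export.

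The 6 lesioned libraries held 24242069 to 26011665 counts each, with 20013 to 20272 genes detected. Markers of neurons (Snap25), oligodendrocytes (Mbp), microglia (Cx3cr1) and endothelium (Cldn5) were present in every library. The phagocyte gene Gpnmb lay at 201 to 448 CPM (counts scaled to a common library size) in the lesioned libraries and at 2.05 to 29.0 in the intact ones. One library stood apart. Wild-type lesion 1 differed from wild-type lesion 2 and 3 by a root mean square of 0.497 and 0.457 in log2 CPM over genes, while those differed by 0.334 from each other. It lay at 0.418 from DKK1 lesion 1, nearer than to either library of its own group. Results are therefore given with all libraries and without it. Markers of neighbouring regions overlapped between the groups. The 16 choroid plexus markers summed to 608 to 1039 CPM in wild-type and 582 to 1019 CPM in DKK1 lesions, and the 21 thalamus and hypothalamus markers to 475 to 752 and 514 to 720 CPM. No marker of either list was at 0 counts in either group. In bulk tissue, fewer cells of a type and less RNA per cell cannot be told apart.

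The genes at the modified loci were read first. Dkk1 (NM_010051, chr19:30545885-30549496, minus strand, mm10) had 0 counts in the 3 wild-type lesioned libraries and 32, 7 and 44 counts in the DKK1 ones. DKK1 lesion 2 was the lowest of the 3, and the groups did not overlap. Against a floor of 3 counts over the group, Dkk1 was at least 28.3-fold higher (edgeR quasi-likelihood test with Benjamini-Hochberg adjustment, adjusted p = 0.0443), and the adjusted p was 0.135, 0.121 and 0.147 without DKK1 lesion 3, wild-type lesion 2 or wild-type lesion 3. On the intact side Dkk1 was at least 7.98-fold higher, with 22 counts against 0 (adjusted p = 0.437). Hprt, the purine salvage gene that carries the transgene, was at 67.5, 71.8 and 70.3 CPM in wild-type and 13.6, 12.1 and 12.7 CPM in DKK1 lesions. It fell by 2.45 on the log2 scale (SE 0.06, adjusted p = 2.12e-09) and was also lower on the intact side. Nnt, a mitochondrial proton pump that is partly deleted in the C57BL/6J strain, was at 36.4, 31.4 and 31.2 CPM in wild-type and 62.2, 62.7 and 56.4 CPM in DKK1 lesions. It rose by 0.87 ± 0.07 (log2 ± SE, adjusted p = 3.54e-05). Gt(ROSA)26Sor, the transcript of the activator's locus, had a log2 difference of -0.49 ± 0.12 (adjusted p = 0.0631).

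Of 17612 genes tested, 417 (2.37%) passed an adjusted p under 0.05, 268 of them higher (1.52%) and 149 lower (0.846%) in DKK1 lesions. The 3 libraries of one group lay wholly above or below those of the other for each of the 417 genes, and for 20.6% of all genes tested. The median log2 difference over all genes was 0.02. How many genes passed, and in which direction, rested on single libraries and on the scaling. Without wild-type lesion 1, 2551 genes (14.3% of those tested) passed, among them each of the 417. The count was 1070 without DKK1 lesion 1, 139 without DKK1 lesion 2, 131 without DKK1 lesion 3, 143 without wild-type lesion 2 and 119 without wild-type lesion 3. The intact libraries enter the estimate of spread: 133 genes were higher and 118 lower without DKK1 intact 1, and 230 passed without DKK1 intact 2 and 230 without DKK1 intact 3. Without wild-type intact 1, 2 and 3 in turn, 443, 285 and 187 passed. The 6 lesioned libraries fitted alone gave 97 genes (0.558%), of which 96 were among the 417. The share higher was 64.3%, but 50.0% under upper-quartile scaling, 45.5% on the deposited TPM, 52.8% with no filter on low counts and 53.6% in the 6 libraries alone. With the replicate number of each genotype as a random-effect replicate block, 655 genes passed, 408 of them among the 417.

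Between the intact hemispheres, 155 genes (0.880%) differed by genotype, and 94, 99 and 100 without DKK1 intact 1, 2 or 3. Of these, 114 were among the 417, which is 27.3% of the lesioned-side and 73.5% of the intact-side genes, and each changed in the same direction on both sides. The other 303 genes, 216 higher and 87 lower, passed on the lesioned side and not on the intact side. A test of the difference between hemispheres passed for 1 gene of all tested (0.00568%, H2-T-ps), with 1689 genes at an unadjusted p under 0.05. It passed for 393 genes without wild-type lesion 1, 17 without DKK1 lesion 1, 4 without wild-type intact 3, 2 without wild-type intact 1, and 0 without DKK1 lesion 2 or 3, wild-type lesion 2 or any 1 of the DKK1 intact libraries. Equal replicate numbers were taken to pair the hemispheres within a genotype. That rests only on correlated deviations, since the labels do not name the animals, and is uncertain. The same test with each genotype and number as a fixed replicate block passed for 288 genes (1.64%). The signed DKK1 minus wild-type log2 value was lower on the lesioned side for 30 of them and higher for the others. A lower value can be a larger fall in the lesion, as for Lrrc55 below. That count was 1455 without the wild-type libraries numbered 1 (8.21%), 634 without the DKK1 pair 1, 5 without the DKK1 pair 2, 30 without the DKK1 pair 3, and 119 and 136 without the wild-type pairs 2 and 3. Of the 303 genes, 42 passed it, against 1 of the 114. Both sets were formed from the same values that enter this test, so the contrast between them is partly built in and is no separate support.

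**Figure D1:**
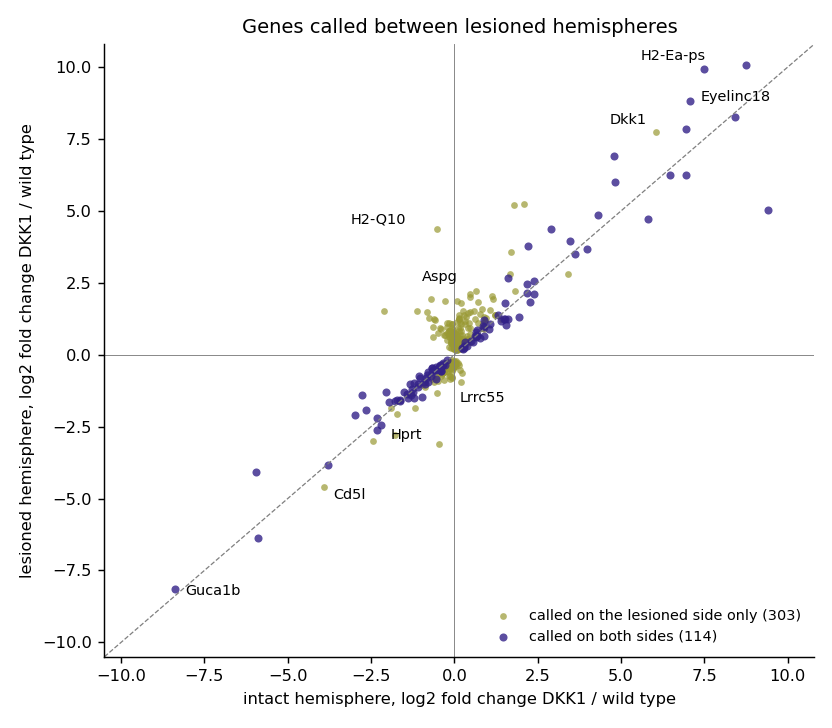
Fitted log2 fold change of DKK1 over wild type for the 417 genes that passed between lesioned hemispheres, with the intact hemisphere on the x axis and the lesioned one on the y axis. The 114 genes that passed on both sides (dark) spread along the dashed line of equality, and the 303 others (light) cluster near 0 on the x axis; fitted values of genes with 0 counts in a group, such as Dkk1 and Guca1b, depend on the prior count.

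Many of the large fold changes were of genes that differed on both sides. H2-Ea-ps, an MHC class II alpha chain pseudogene, was at 0.0374, 0 and 0.152 CPM in wild-type lesions and at 63.7, 68.0 and 72.3 CPM in DKK1 lesions (9.95 ± 0.29 on the log2 scale, adjusted p = 3.78e-08). On the intact side it was at 0 counts in wild type and 61 counts over the 3 DKK1 libraries. Tmem181c-ps, a pseudogene on chromosome 17, was at 1.35, 2.42 and 2.05 CPM in wild-type and 160, 128 and 158 CPM in DKK1 lesions. The GTPase-activating gene Arhgap8, the histone gene Hist1h2al, the serpin Serpina3h, the ring finger gene Rnf151 and the long non-coding RNA Eyelinc18 were under 1 CPM in every wild-type lesion, with log2 rises of 3.97 to 8.80. H2-T3, a non-classical MHC class I gene, had 1 count over the wild-type and 318 over the DKK1 lesioned libraries (ratio 325, exact 95% interval 57.9 to 12870, counting error only). In the other direction, Guca1b, an activator of retinal guanylate cyclase, had 111 counts over the wild-type lesions and 0 in DKK1 (at least 36.2-fold lower).

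Ribosomal Rps3a1 was at 86.8, 81.9 and 83.4 CPM in wild-type and 18.2, 18.8 and 18.4 CPM in DKK1 lesions, and fell by 2.19 on the log2 scale (SE 0.08, adjusted p = 2.99e-08). Ramac, a cofactor of mRNA cap methylation, the vacuolar ATPase pseudogene Atp6v0c-ps2, the chromatin gene Hmga1b, the glycosyltransferase B3gnt3 and the adhesion receptor Adgrf4 fell by 1.58 to 1.66. None of these 15 genes, rises and falls together, was lost when any 1 lesioned library was left out. Histone, serpin, ribosomal, H2 and pseudogene families have near-identical copies between which the counting could have split reads, so their values are uncertain. The counting's use of strand is not given in the sources used here, so reads of Arhgap8, Aspg, Ctsb, Cxcl11, Cxcr6, Des, H2-T24, Ms4a1 and Pax5 cannot be told apart from those of a gene annotated on the opposite strand.

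Genes that differed lay close together on the genome. Chromosome 17 held 90 of the 417 genes (10.2% of its 883 tested genes), 65 of the 155 intact-side genes and 50 of the 114 shared ones. Cut into windows of 10 Mb, the genome had 16 windows with at least 3 intact-side genes, on chromosomes 3, 7, 8, 10, 12, 15 and 17. These held 10.2% of genes tested and 178 of the 417 (42.7%). That share is partly built in, since intact-side genes set the windows and the 417 include the 114 shared genes. Of the 114, 17 lay outside the windows. The window of chromosome 17 that starts at 30 Mb and holds the H2 complex had 31. Outside the windows 239 of 15811 genes passed (1.51%), 165 higher and 74 lower. Genes named below are marked where they lie in such a window, and the part of their position in the result was not tested.

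**Figure D2:**
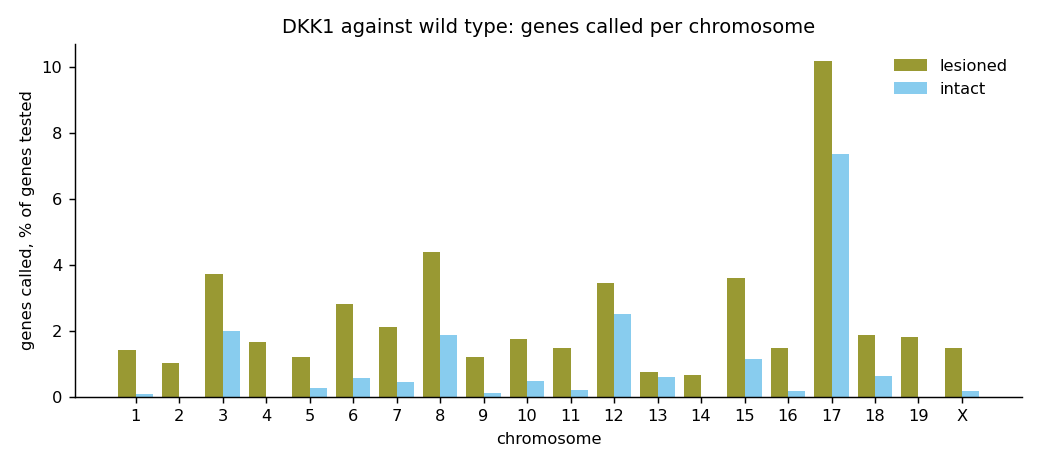
Bars give the percentage of tested genes that passed between genotypes on each chromosome, in the lesioned and the intact hemisphere (3 libraries a group). Chromosome 17 stands highest on both sides, at 10.2% for the lesioned hemisphere.

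Among genes that passed on the lesioned side and not on the intact side, 24 also passed with the 6 lesioned libraries alone. Among them was Aspg (NM_001081169, chr12:112106683-112127573, plus strand, in a window), an asparaginase homologue known as a gene of reactive astrocytes. It was at 44.9, 42.7 and 38.0 CPM in wild-type and 144, 210 and 229 CPM in DKK1 lesions. The lowest DKK1 library was above every wild-type library. Aspg rose by 2.21 ± 0.18 (adjusted p = 4.31e-05), against 0.64 on the intact side, where it lay at 6.26 ± 1.20 CPM in wild type and 9.70 ± 2.19 in DKK1 (SD, n = 3). The difference between hemispheres passed with the fixed replicate block (adjusted p = 0.0104) and had an unadjusted p of 0.000172 without it. The 250 bases before its start are shown because it had the largest rise among the named genes of this set above 10 CPM in every lesioned library, from RefSeq on GRCm38.p6 at chr12:112106433-112106682, plus strand. No capitals are used, since no motif is marked in it.
Aspg upstream: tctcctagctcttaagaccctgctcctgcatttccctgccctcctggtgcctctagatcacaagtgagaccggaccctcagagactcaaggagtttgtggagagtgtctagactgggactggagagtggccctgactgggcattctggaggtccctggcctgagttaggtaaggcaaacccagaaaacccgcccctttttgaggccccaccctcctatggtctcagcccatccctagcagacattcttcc

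Several further genes of matrix, transcription and innate recognition rose in the same set. C4a, a near-identical copy of the complement gene C4b and in a window, was at 4.97, 4.87 and 5.14 CPM in wild-type and 19.9, 22.9 and 22.3 CPM in DKK1 lesions (2.12 ± 0.20, adjusted p = 8.94e-05). Clec3b, which encodes the secreted lectin tetranectin, went from 5.81 ± 1.33 to 17.6 ± 1.59 CPM (SD, n = 3; 1.60 ± 0.20, adjusted p = 0.00138). Tfap2b, an AP-2 transcription factor, was at 7.96, 8.08 and 5.21 CPM against 18.3, 18.4 and 20.9 CPM (1.44 ± 0.18, adjusted p = 0.00168). Neither Clec3b nor Tfap2b lay in a window, and for both the groups were well separated. The scavenger receptor Colec12 rose by 1.37 ± 0.23, the metalloprotease Adam33 by 1.14 ± 0.18 and the interleukin-9 receptor Il9r by 1.86 ± 0.31.

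Of the falls in that set, Cd5l is described with the macrophage genes. Lrrc55, an auxiliary subunit of BK potassium channels, was at 58.9, 50.5 and 61.3 CPM in wild-type and 33.5, 30.7 and 30.7 CPM in DKK1 lesions. It fell by 0.85 on the log2 scale (SE 0.09, adjusted p = 0.000261) and had a difference of -0.13 on the intact side, with an adjusted p of 0.00994 for the difference between hemispheres under the fixed replicate block. Kcng4, a modulatory potassium channel subunit, fell by 0.77. Homer2, a postsynaptic scaffold in a window, fell by 0.74. Fras1, a basement membrane protein, fell by 0.64 and Col25a1, a membrane collagen of neurons, by 0.51. Of these 12 genes, 9 passed in each fit that left out a lesioned library. Colec12, Il9r and Col25a1 did not, with adjusted p from 0.0553 to 0.0751: all 3 missed without DKK1 lesion 2 and without wild-type lesion 3, Il9r without DKK1 lesion 3 and Colec12 without wild-type lesion 2.

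**Figure D3:**
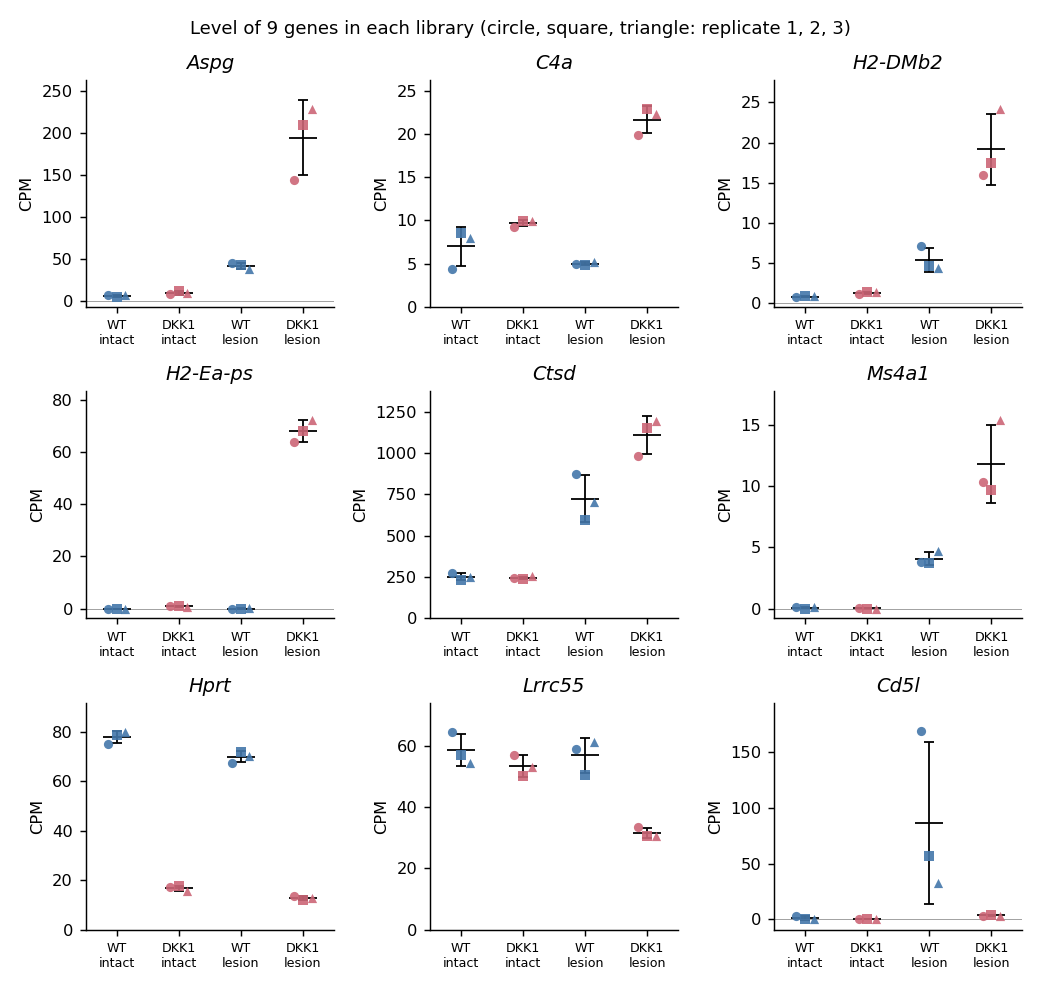
CPM of 9 genes in the 12 libraries by group, with points for replicates 1 (circle), 2 (square) and 3 (triangle) and bars for the mean and SD (n = 3). Aspg, C4a, H2-DMb2, H2-Ea-ps, Ctsd and Ms4a1 were higher in every DKK1 lesion than in any wild-type one, and Hprt, Lrrc55 and Cd5l were lower.

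Other large differences were mostly of genes at low levels, and each of these 13 genes had the same sign on the intact side, with log2 differences of 0.20 to 1.81 for the rises and -0.32 to -2.45 for the falls. Only Tjap1 had an unadjusted p under 0.05 for the difference between hemispheres (0.0367). The adhesion receptor Adgrg5 rose by 2.81 ± 0.59, the actin-capping tropomodulin Tmod4 by 2.20 ± 0.35 and the transcription factor Mef2b by 2.04 ± 0.31. Tjap1, a tight junction-associated protein, was at 44.2, 48.7 and 43.5 CPM against 61.7, 67.3 and 71.9 CPM and rose by 0.56 ± 0.11. Glp1r, the receptor of glucagon-like peptide-1, was at 3.29, 1.59 and 2.93 CPM in wild-type and 0.313, 0.206 and 0.596 CPM in DKK1 lesions, and fell by 2.78 (SE 0.44). Nat8f5, Vmn2r1, Fam89a, Iqgap3, Ly6g6e, Upb1, Kif6 and Tmem232 fell by 0.89 to 3.01. Iqgap3 is a scaffold of dividing cells, Kif6 a kinesin, Upb1 an enzyme of pyrimidine breakdown and Vmn2r1 a vomeronasal receptor. Mef2b, Tmod4, Tjap1, Glp1r, Iqgap3, Ly6g6e and Kif6 lay in windows. Of these 13 genes, 10 no longer passed without DKK1 lesion 2 (adjusted p 0.0513 to 0.166), 9 without DKK1 lesion 3 (0.0641 to 0.155), 6 without wild-type lesion 2 (0.0502 to 0.165), 9 without wild-type lesion 3 (0.0613 to 0.162) and 2 without DKK1 lesion 1 (0.0546 to 0.0583). Only Mef2b, Tmod4 and Glp1r passed in each of these fits, and with the 6 lesioned libraries alone only Tmod4 and Tjap1 passed.

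Gene lists of cell types and pathways were then read member by member. The 42 lists had 937 tested genes, of which 48 (5.12%) passed, against 2.37% of all genes. The lists were chosen with earlier results of these data known and hold the induced Dkk1, so that excess is no independent support. In most immune and matrix lists, and for reactive astrocytes and disease-associated microglia, most members lay above 0 while few passed. The median over all genes was 0.02. Other glial lists did not share this: 9 of 19 astrocyte homeostasis, 11 of 19 myelin and 6 of 17 oligodendrocyte precursor genes lay above 0. In neuronal lists none passed. The plot of list medians gives each list. Counts below for fits without 1 library are to be read against all genes in the same fit. Without wild-type lesion 1, 14.3% of all genes passed, and without DKK1 lesion 1, 1070 of 17812.

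**Figure D4:**
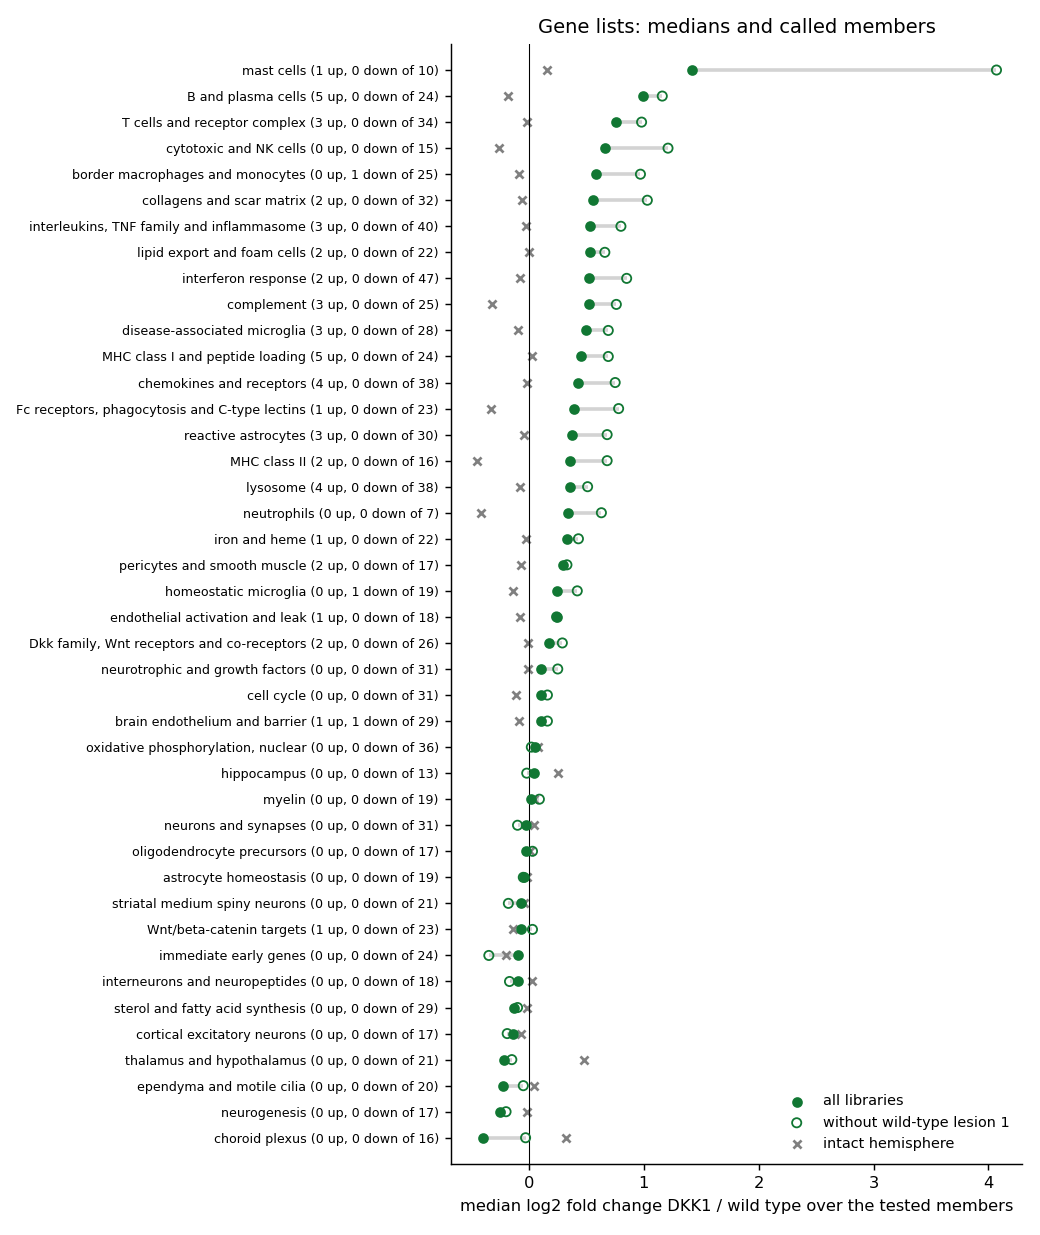
Median log2 fold change of DKK1 over wild type over the tested members of 42 gene lists, for all libraries (filled), without wild-type lesion 1 (open) and in the intact hemisphere (cross), with the members that passed in brackets. Immune and matrix lists lie to the right of 0 on the lesioned side, from 0.24 for homeostatic microglia to 1.42 for mast cells; the mast cell point without wild-type lesion 1 rests on genes with few counts in the remaining wild-type libraries.

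MHC class I genes present peptides to CD8 T cells. Of 24 tested members of the class I and peptide loading list, 5 rose (20.8%, against 2.37% of all genes). All 24 lay above 0, with a median log2 difference of 0.45. H2-Q10 was at 0.710, 0.594 and 0.381 CPM in wild-type and 9.40, 12.5 and 13.1 CPM in DKK1 lesions (4.36 ± 0.70, adjusted p = 0.00915). Its intact-side difference was -0.53, and the difference between hemispheres passed with the fixed replicate block (adjusted p = 0.00951). H2-T3, described above, was another of the 5. H2-Q1, which is not in the list, was at 0.636, 0.832 and 0.799 CPM against 7.99, 10.1 and 9.06 CPM (3.57 ± 0.49). In both genes the groups lay far apart. H2-Q4 rose by 1.39 ± 0.27 from 50.7, 38.4 and 31.0 CPM, H2-T10 by 1.22 ± 0.21, and H2-T24, at 20.9, 12.5 and 14.7 CPM against 30.9, 40.1 and 39.8 CPM, by 1.20 ± 0.26.

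MHC class II genes present to CD4 T cells. Of 16 tested members 2 rose (12.5%, against 2.37% of all genes), H2-Ea-ps and H2-DMb2. The median of the list was 0.36. H2-DMb2, a subunit of the peptide exchanger of class II, was at 7.10, 4.60 and 4.38 CPM in wild-type and 15.9, 17.4 and 24.2 CPM in DKK1 lesions (1.83 ± 0.21, adjusted p = 0.000560), the groups not overlapping. H2-Aa, the class II alpha chain, was at 104, 62.5 and 46.6 CPM against 81.4, 90.1 and 94.3 CPM, so that its groups overlapped (0.32 ± 0.50, adjusted p = 0.758). H2-T-ps, a class I pseudogene at chr17:36109030-36111676, was at 1.64, 1.74 and 2.17 CPM in wild-type and 5.87, 7.67 and 7.57 CPM in DKK1 lesions (1.92 ± 0.19, adjusted p = 0.000137). Its intact-side difference was -0.70, and the difference between hemispheres was 2.63 ± 0.28 (adjusted p = 0.0148). That call was lost without DKK1 lesion 2 or 3, wild-type lesion 2 or any 1 of the DKK1 intact libraries, and with limma-voom. The H2 genes that rose here all lay in windows. Outside the windows 0 of 7 class I list members and 0 of 4 class II members passed, against 1.51% of all genes there. These members are too few to tell their share from that of all genes. Without wild-type lesion 1, 16 of the class I and 7 of the class II members passed; without DKK1 lesion 1, 8 and 3. Of the class I members 2 passed without DKK1 lesion 2, DKK1 lesion 3 or wild-type lesion 2, and 1 without wild-type lesion 3. H2-Q4 and H2-T24 were lost in each of these 4 fits, H2-T10 in 3 and H2-Q10 in 2, with adjusted p from 0.0615 to 0.165. With the 6 lesioned libraries alone H2-T10 and H2-T24 missed (0.0842 and 0.0764).

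Complement tags debris and synapses for uptake. Of 25 tested members 3 rose and 24 lay above 0, with a median of 0.52 against -0.32 on the intact side. C4a and C2 were among them. C2, the protease of the classical C3 convertase and in a window, was at 27.6, 17.8 and 15.9 CPM against 31.3, 48.1 and 49.6 CPM (1.07 ± 0.24, adjusted p = 0.0466). The groups did not overlap for C2, with DKK1 lesion 1 nearest to wild-type lesion 1. The initiator chain C1qb had a difference of 0.52 ± 0.14 (adjusted p = 0.0724). The difference between hemispheres passed for 11 of the 25 with the fixed replicate block, against 1.64% of all genes. Each of the 11 had a higher DKK1 minus wild-type value in the lesion. With replicate number as a block across both genotypes C2 missed (adjusted p = 0.0645). The list's count was 13 without wild-type lesion 1, 6 without DKK1 lesion 1 and 1 in each other fit that left out a lesioned library; C2 was lost in these 4 fits, at an adjusted p of 0.181, 0.178, 0.182 and 0.204, and with the 6 lesioned libraries alone (0.196).

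Interferon-response genes stood similarly: 46 of 47 lay above 0 with a median of 0.52, and 2 rose (4.26%, against 2.37% of all genes). Ifitm1, a restriction factor of viral entry, was at 13.3, 10.2 and 11.3 CPM against 20.1, 27.9 and 26.5 CPM (1.09 ± 0.16, adjusted p = 0.00396). Ifitm3, its neighbour on chromosome 7, was at 51.1, 35.8 and 40.4 CPM against 60.7, 77.6 and 75.7 CPM (0.75 ± 0.15, adjusted p = 0.0270). In both genes the groups did not overlap. The list had 23 genes without wild-type lesion 1, 7 without DKK1 lesion 1 and 1 in each of the other 4 fits, where Ifitm3 was lost (0.102 to 0.133) and Ifitm1 kept, as in the 6 lesioned libraries alone (0.148 for Ifitm3). The core of the interferon-stimulated response element, GAAA and a second GAAA with any 2 bases between them, was searched on both strands from 250 bases before to 50 after each start in RefSeq promoters of GRCm38.p6. It was present in 21 of 42 promoters of the list (35 genes matched) and in 3.44% of all 32851 promoters. The share was 3.09% of promoters of tested genes and 2.49% of promoters of genes that passed on the lesioned side. The stretch of Ifitm3 that holds 2 matches is shown, in capitals, from base 3 to base 29 after its start, at chr7:141010716-141010742 on the minus strand. The Ifitm1 window had no match.
Ifitm3 element: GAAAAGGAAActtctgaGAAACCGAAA

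Lysosomal proteases and lipid handlers digest and export what phagocytes take up. In the lysosome list 4 of 38 tested members rose (10.5%, against 2.37% of all genes), 34 lay above 0 and the median was 0.36. An unadjusted p under 0.05 was found for 24, a count that was not set against all genes. Ctsd, the aspartic protease cathepsin D, was at 872, 592 and 706 CPM in wild-type and 980, 1150 and 1194 CPM in DKK1 lesions. Every DKK1 library lay above every wild-type one, with wild-type lesion 1 closest. Ctsd rose by 0.62 ± 0.12 (adjusted p = 0.0304), had a difference of -0.03 on the intact side, and differed between hemispheres with the fixed replicate block (adjusted p = 0.0186). The cysteine protease Ctsb rose by 0.50 ± 0.11, the saposin precursor Psap by 0.35 ± 0.07 and acid ceramidase, Asah1, by 0.31 ± 0.07.

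The promoter of Ctsd is shown because lysosomal genes share an E-box, TCACGTG, that TFEB family factors are known to bind. It was searched on both strands in the same windows and was in 8 of 32 promoters of the list (25%, 28 genes matched), in 5.23% of promoters of tested genes and in 3.77% of all. Among promoters of genes that passed on the lesioned side the share was 4.48%. Ctsd had 3 matches, in capitals, at bases -245 to -239, -99 to -93 and -98 to -92 from the start, of which the last 2 overlap. The sequence is the 250 bases before the start, at chr7:142387828-142388077 on the minus strand. The windows of Psap had no match.
Ctsd upstream: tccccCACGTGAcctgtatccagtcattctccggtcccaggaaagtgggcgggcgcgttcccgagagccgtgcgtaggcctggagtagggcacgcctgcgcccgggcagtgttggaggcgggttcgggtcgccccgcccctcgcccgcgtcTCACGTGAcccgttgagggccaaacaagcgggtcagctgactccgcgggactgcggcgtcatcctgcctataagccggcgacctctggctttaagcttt

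Of 22 genes of lipid export and foam cells, 2 rose (9.09%, against 2.37% of all genes). Apoe, the main lipid carrier of the brain, was at 1666, 1247 and 1390 CPM against 1891, 2158 and 2172 CPM (0.53 ± 0.11, adjusted p = 0.0366). The cholesterol exporter Abcg1, in a window, was at 229, 194 and 201 CPM against 241, 278 and 274 CPM (0.34 ± 0.08). The ferritin light chain Ftl1 rose by 0.54 ± 0.11 and the inhibitory receptor Cd300a by 0.95 ± 0.22. Lipa, the lysosomal lipase, and Axl, a receptor for dying cells, had groups that overlapped (0.59 ± 0.19 and 0.46 ± 0.19, adjusted p = 0.121 and 0.197), and both passed without wild-type lesion 1 (0.000353 and 0.000400). Of 28 genes of disease-associated microglia 3 rose (10.7%) and 27 lay above 0 (median 0.50). In each of the fits without DKK1 lesion 2, DKK1 lesion 3, wild-type lesion 2 or wild-type lesion 3 all 8 of these risen genes, from Ctsd to Cd300a, missed the threshold (adjusted p 0.0830 to 0.210), and with the 6 lesioned libraries alone all 8 missed it too (0.196 to 0.246). Without wild-type lesion 1 the count was 25 for the lysosome, 14 for the lipid export and 14 for the disease-associated microglia list, without DKK1 lesion 1 it was 16, 7 and 7, and in the other 4 fits it was 0 for each. Asah1 and Cd300a also missed with replicate number as a block (0.0557 and 0.0678), and Cd300a with the random-effect block (0.0565).

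The lists of border macrophages and of homeostatic microglia each had 1 gene past the threshold, a fall, while 22 of 25 and 14 of 19 members lay above 0 (medians 0.58 and 0.24). Both genes lie in the same window of chromosome 3. Cd5l, a secreted scavenger receptor of tissue macrophages, was at 169, 57.2 and 33.0 CPM in wild-type and 3.52, 3.63 and 3.47 CPM in DKK1 lesions. The wild-type libraries spread widely and the DKK1 libraries hardly at all. Cd5l fell by 4.61 on the log2 scale (SE 0.80, adjusted p = 0.0168). On the intact side the wild-type libraries had 88, 0 and 2 counts and the DKK1 libraries 2, 2 and 1. Fcrls, an Fc receptor-like gene of microglia, was at 132, 55.0 and 77.3 CPM against 27.8, 16.1 and 29.0 CPM and fell by 1.86 (SE 0.40, adjusted p = 0.0397), with -1.91 on the intact side (adjusted p = 0.120). The difference between hemispheres did not pass for either (unadjusted p = 0.859 and 0.926). Cd5l missed without DKK1 lesion 2 or 3 (adjusted p = 0.0917 and 0.0944). Fcrls missed without DKK1 lesion 1, 2 or 3 (0.0520, 0.174 and 0.128) and without wild-type lesion 2 or 3 (0.0599 and 0.125), and with the 6 lesioned libraries alone (0.116). Leaving out wild-type lesion 1, 10 border macrophage and 4 homeostatic microglia genes rose.

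B cells had the largest median of any list with more than 10 tested members. Of 24 members 5 rose (20.8%, against 2.37% of all genes) and 23 lay above 0. The median log2 difference was 0.99 (-0.18 on the intact side). Ms4a1, which encodes CD20, was at 3.81, 3.73 and 4.68 CPM in wild-type and 10.3, 9.65 and 15.4 CPM in DKK1 lesions (1.53 ± 0.27, adjusted p = 0.0167). It had 6 and 1 counts over the intact libraries of wild type and DKK1. Pax5, the transcription factor of B cell identity, went from 5.90 ± 1.13 to 16.7 ± 6.10 CPM (SD, n = 3), a rise of 1.50 ± 0.32 (adjusted p = 0.0354). DKK1 lesion 3 was the highest for both, and the groups did not overlap. The complement receptor Cr2 rose by 1.78 ± 0.31, the BAFF receptor Tnfrsf13c, in a window, by 1.50 ± 0.29 and the signalling scaffold Bank1 by 1.10 ± 0.19.

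Outside the windows 4 of 22 B cell genes rose, against 1.51% of all genes there that passed. The list level, the mean log2 CPM of its members relative to wild-type intact libraries, was 3.32, 2.84 and 3.12 in the wild-type lesions, below the 3.73, 3.84 and 4.39 of the DKK1 lesions. The count was 14 without wild-type lesion 1, 6 without DKK1 lesion 1, 4 without DKK1 lesion 2, where Pax5 missed (0.0702), and 0 without DKK1 lesion 3, wild-type lesion 2 or wild-type lesion 3 (0.0584 to 0.163). With the 6 lesioned libraries alone 1 passed, Ms4a1.

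For T cells, 3 of 34 members rose (8.82%, against 2.37% of all genes) and 30 lay above 0 (median 0.76). Cd8b1, a chain of the CD8 co-receptor, was at 1.12, 1.35 and 0.419 CPM against 2.78, 4.17 and 3.62 CPM (1.87 ± 0.42, adjusted p = 0.0449). Cxcr6, a homing receptor of resident memory T cells, rose by 1.47 ± 0.31 and the lymphocyte GTPase Gimap3 by 1.24 ± 0.24. Cd3e, a signalling chain of the T cell receptor, was at 1.64 to 2.65 CPM in wild-type and 4.03 to 4.37 CPM in DKK1 lesions (0.99 ± 0.24, adjusted p = 0.0529). Its groups did not overlap, though the difference missed the threshold. No NK cell gene passed of 15, at a median of 0.66.

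Among chemokine genes 4 of 38 rose (10.5%, against 2.37% of all genes). Cxcr4, the receptor of Cxcl12, was at 27.7, 25.4 and 29.2 CPM against 32.8, 63.0 and 61.4 CPM (0.93 ± 0.20, adjusted p = 0.0366), with DKK1 lesion 1 close to wild type. Ccr6, a receptor of B and T cells in a window, was at 0.636, 0.634 and 0.761 CPM against 4.23, 3.01 and 4.06 CPM (2.47 ± 0.31) and also rose on the intact side (2.17, adjusted p = 0.0133). Cxcl11, a ligand of Cxcr3, rose by 2.79 ± 0.63 from under 0.4 CPM. The lymphotoxins Lta and Ltb, which organise lymphoid tissue and lie side by side in a window, rose by 2.56 ± 0.38 and 1.39 ± 0.26, Lta on the intact side as well. The only mast cell gene of 10 to pass, the tryptase Tpsab1 in a window, was at 0.187, 0 and 0.114 CPM against 0.979, 8.95 and 1.86 CPM (adjusted p = 0.0267).

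The mast cell protease Mcpt4 was at 3.96, 0.119 and 0.152 CPM in wild-type and 5.32, 4.33 and 2.87 CPM in DKK1 lesions, so wild-type lesion 1 stood with the DKK1 group. The difference did not pass (1.55 ± 0.87, adjusted p = 0.331) and passed without that library (0.000497). Without wild-type lesion 1, 13 T cell, 12 chemokine and 7 mast cell genes passed, and 6, 4 and 1 without DKK1 lesion 1. Of the 9 risen genes of these and the cytokine lists, Ccr6 and Lta passed in each fit that left out a lesioned library. Cd8b1, Cxcr6, Gimap3, Cxcl11, Cxcr4 and Ltb missed without DKK1 lesion 2, DKK1 lesion 3, wild-type lesion 2 or wild-type lesion 3 (adjusted p 0.0813 to 0.194). Tpsab1 missed without DKK1 lesion 2, wild-type lesion 2 and wild-type lesion 3 (0.0581, 0.107 and 0.128), Cxcl11 also without DKK1 lesion 1 (0.0615). With the 6 lesioned libraries alone, Ccr6 and Lta passed of the 9. With the random-effect replicate block, Cxcr4 (0.0585) and Tpsab1 (0.107) missed.

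Reactive astrocytes and fibroblasts wall off the lesion. Of 30 reactive astrocyte genes 3 rose and 27 lay above 0 (median 0.37), while 0 of 19 genes of astrocyte homeostasis passed (median -0.04). They were Aspg, Sphk1 and Vim. Vim, the filament protein vimentin, was at 199, 148 and 168 CPM in wild-type and 221, 262 and 224 CPM in DKK1 lesions (0.46 ± 0.11, adjusted p = 0.0484). Sphk1, a kinase of sphingosine, rose by 0.92 ± 0.19 from 9.68, 8.80 and 7.08 CPM. Gfap, the classical filament of reactive astrocytes, had a difference of 0.32 (adjusted p = 0.271). In the list of collagens and scar matrix 2 of 32 rose (6.25%) and 30 lay above 0 (median 0.56).

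Thbs1, a thrombospondin that binds matrix, was at 52.3, 41.4 and 38.3 CPM against 71.0, 156 and 87.0 CPM (1.25 ± 0.26, adjusted p = 0.0345). Its relative Thbs2, in a window, was at 48.9, 26.6 and 22.3 CPM against 56.3, 93.7 and 81.0 CPM (1.24 ± 0.26). DKK1 lesion 2 was the highest for both, and DKK1 lesion 1 the nearest to wild type. Col6a2, a chain of collagen VI, had overlapping groups (0.68 ± 0.22, adjusted p = 0.117) and passed without wild-type lesion 1 (0.00394). Without that library 13 reactive astrocyte and 20 scar genes passed, and 5 and 3 without DKK1 lesion 1. In each of the other 4 such fits Aspg alone of the astrocyte genes and 0 scar genes passed. Sphk1, Vim, Thbs1 and Thbs2 missed in these 4 fits (0.0649 to 0.202) and with the 6 lesioned libraries alone (0.0858 to 0.220).

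In the brain endothelium and barrier list 2 of 29 members passed (6.90%, against 2.37% of all genes), among them Pecam1, and the median was 0.10. Pecam1, an adhesion protein of endothelial junctions, was at 47.0, 43.8 and 43.4 CPM in wild-type and 55.8, 69.1 and 66.0 CPM in DKK1 lesions, with no overlap (0.51 ± 0.08, adjusted p = 0.00882), and -0.02 on the intact side. Cldn5, the main tight junction protein of the barrier, was at 60.2, 62.1 and 66.7 CPM against 66.1, 74.6 and 72.9 CPM (0.18, adjusted p = 0.164). Plvap, a protein of fenestrated and leaky vessels in a window and the only gene of 18 to pass in the list of endothelial activation and leak (5.56%), was at 16.3, 10.6 and 13.2 CPM against 20.2, 20.5 and 22.5 CPM and rose by 0.66 ± 0.13. Plvap rose on the intact side too (0.88, adjusted p = 0.00461).

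The smooth muscle myosin Myh11 rose by 0.52 ± 0.11 and the filament desmin, Des, by 0.64 ± 0.15, 2 of 17 pericyte and smooth muscle genes (11.8%). Without DKK1 lesion 3 or wild-type lesion 3 all 4 of Pecam1, Plvap, Myh11 and Des missed, and without DKK1 lesion 2 or wild-type lesion 2 all but Pecam1, with adjusted p from 0.0512 to 0.209. With the 6 lesioned libraries alone all 4 missed (0.0976 to 0.219). Des missed with replicate number as a block (0.0566). Without wild-type lesion 1, 5 of 29 barrier and 5 of 17 pericyte genes passed, against 14.3% of all genes.

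Of 23 target genes of beta-catenin 1 passed (4.35%, against 2.37% of all genes), 9 lay above 0, and the median was -0.07 (-0.14 on the intact side). Axin2, a feedback inhibitor used as a readout of the pathway, was at 56.3, 46.5 and 56.6 CPM in wild-type and 51.1, 41.1 and 45.6 CPM in DKK1 lesions. Its groups overlapped (-0.21 ± 0.10, adjusted p = 0.241). The nuclear effector Lef1 was at 15.8, 14.9 and 18.0 CPM against 15.2, 12.7 and 13.4 CPM (-0.24 ± 0.13), and the inhibitor Apcdd1 at 47.1, 49.6 and 57.3 CPM against 55.2, 45.9 and 38.1 CPM (-0.15 ± 0.17). The groups of both overlapped as well. Myc and the Dishevelled antagonist Nkd2 had differences of 0.55 ± 0.16 and 0.54 ± 0.20 (adjusted p = 0.0925 and 0.161).

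Of 26 genes of the Dkk family, Wnt receptors and co-receptors, 2 rose (7.69%), Dkk1 and Dkk2. Dkk2, a relative of Dkk1 that is also the target gene that passed, was at 5.53, 3.96 and 5.78 CPM in wild-type and 7.71, 11.0 and 9.58 CPM in DKK1 lesions, without overlap (0.89 ± 0.20, adjusted p = 0.0421). Its intact-side difference was -0.39. Dkk2 missed without DKK1 lesion 2 (0.192), DKK1 lesion 3 (0.149), wild-type lesion 2 (0.160) or wild-type lesion 3 (0.121), and with the 6 lesioned libraries alone (0.189). Of the receptors that DKK1 binds, Lrp5 was at 55.4, 43.7 and 42.2 CPM against 48.9, 75.0 and 72.8 CPM (0.48 ± 0.15, adjusted p = 0.110), Lrp6 differed by 0.09 ± 0.06 and Kremen1 by 0.27 ± 0.09 (adjusted p = 0.409 and 0.134). Without wild-type lesion 1, where 14.3% of all genes passed, the counts were 3 of 23 targets and 9 of 26 genes of the receptor list. Without DKK1 lesion 1 they were 2 and 3.

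No gene of the neuronal lists passed, against 2.37% of all genes. Of 31 genes of neurons and synapses 0 passed, with a median of -0.03, and 0 of 21 striatal, 17 cortical, 18 interneuron and 13 hippocampal genes. Map2, a dendritic scaffold, was at 601, 687 and 646 CPM against 626, 541 and 512 CPM (-0.20 ± 0.09, adjusted p = 0.233). Ntng1, a netrin relative of thalamic axons, was at 36.6, 27.9 and 42.0 CPM against 24.5, 22.9 and 23.9 CPM (-0.58 ± 0.14, adjusted p = 0.0516), and its intact-side difference was 0.47. The difference between hemispheres passed for Ntng1 with the fixed replicate block (adjusted p = 0.00208). Thalamus and hypothalamus genes, of which 0 of 21 passed, had a median of -0.22 in the lesion and 0.48 on the intact side, and their part in the value of Ntng1 was not tested.

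Nor did any gene pass in the lists of myelin, oligodendrocyte precursors, cell cycle, neurogenesis, sterol synthesis, oxidative phosphorylation, growth factors, immediate early genes, neutrophils, ependyma or choroid plexus. Several of these leaned to lower values: 5 of 29 sterol and fatty acid synthesis, 2 of 16 choroid plexus, 2 of 20 ependyma, 3 of 17 cortical and 4 of 17 neurogenesis genes lay above 0, with medians of -0.13, -0.40, -0.23, -0.14 and -0.25. The 19 lists without a gene past the threshold held 391 genes. Of these 57 had an unadjusted p under 0.05, a count that was not set against all genes. DESeq2 called 17 of the 391, limma-voom 2 and edgeR without wild-type lesion 1 27. Of all 17612 genes DESeq2 called 1145 and limma-voom 661, and edgeR without wild-type lesion 1 called 14.3% of those tested. In the plot of list levels, the DKK1 lesions lay above all wild-type ones for B cells, T cells, MHC class I, MHC class II, mast cells and complement. For complement the gap was small, with wild-type lesion 1 at 2.43 and the lowest DKK1 library at 2.46. Wild-type lesion 1 lay among the DKK1 libraries for disease-associated microglia, lysosome, interferon response, reactive astrocytes and scar matrix.

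**Figure D5:**
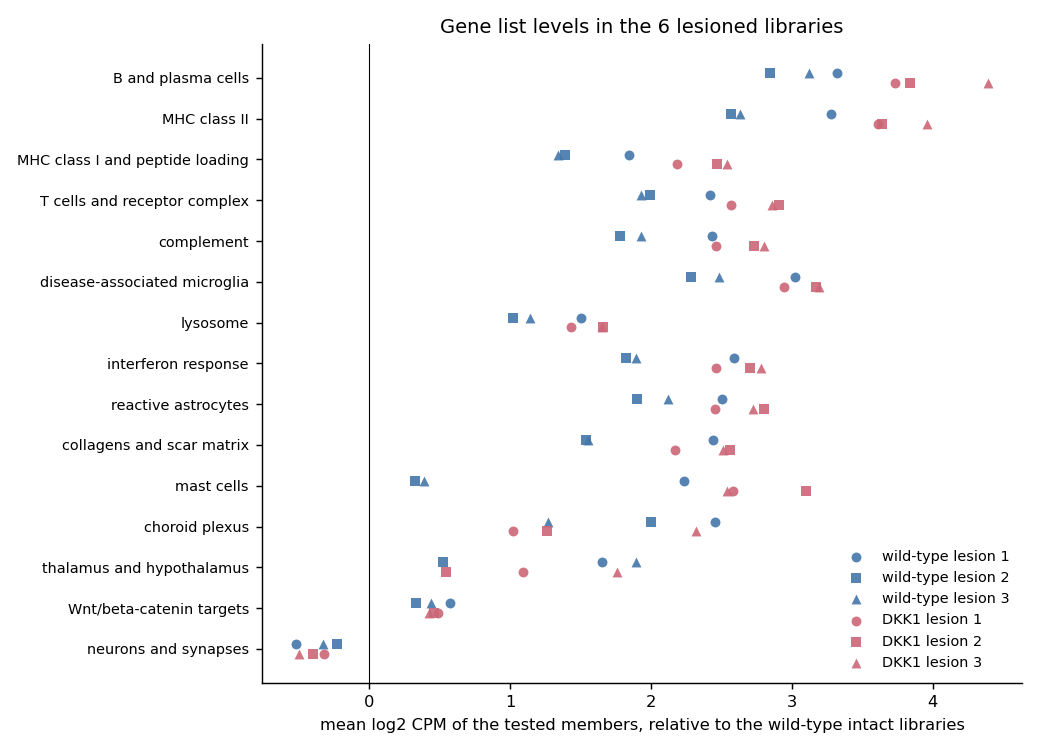
Mean log2 CPM of the tested members of 15 gene lists in each lesioned library, relative to the mean of the wild-type intact libraries. Wild-type lesion 1 (blue circle) is the highest wild-type library for each immune and matrix list shown, at 2.23 for mast cells where the other two are at 0.32 and 0.39.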

How the data were processed

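Libraries of brain tissue were made, per the labels' protocols, with Qiazol and miRNeasy micro RNA extraction, DNase and the NEBNext Ultra II directional kit, and run on the same lane. HOMER 4.11, STAR 2.7.0f and DESeq2 with the mm10 build are named in the submitters' processing notes. The sources used here give no settings and no strand for the counting. Raw counts were deposited by the authors per RefSeq transcript, 1 for each of 25124 symbols, in HOMER's layout per the file headers. They also deposited TPM for the same libraries, used only as an alternative on log2(TPM + 0.1) in limma 3.58.1.

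All 12 libraries entered 1 robust quasi-likelihood model with 4 groups in edgeR 4.0.16 (R 4.3.3, TMM, expression filter with a minimum count of 10, two-sided, p adjusted by Benjamini-Hochberg across the tested genes, threshold 0.05). Log2 fold changes are DKK1 minus wild type with SE. CPM uses TMM-scaled library sizes. Windows of 10 Mb were counted by gene start. The script was tested on simulated data. Alternatives were DESeq2 1.42.0, its size factors, upper-quartile scaling, other filters, limma-voom, the 6 libraries alone, TPM, replicate blocks and each library left out. Folds against 0 counts use a floor of 3 counts over the group and cover counting error only.

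Deviations from group means of same-numbered libraries correlated between hemispheres, at 0.561, 0.437 and 0.376 for the wild-type pairs and at 0.380, 0.187 and 0.173 for the DKK1 pairs, so numbers were taken to pair hemispheres within a genotype. Between genotypes they correlated at -0.101, 0.151 and 0.067 in the lesion and at 0.377, -0.056 and 0.196 on the intact side, not every one over 0.1, so no pairing across genotypes was taken. The values of 0.377 and 0.196 between genotypes were above the 0.187 and 0.173 of the DKK1 pairs 2 and 3. Libraries with unlike numbers were not compared, so the pairing is uncertain.

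The members and lists were chosen with earlier results of these data known. Named genes were the transgene loci, then, of genes passing with no overlap and a lesioned group mean of 1 CPM or more, the 8 largest changes each way called on both sides and the 12 each way called on the lesioned side alone, without predicted models; of each list they were the members past the threshold and the smallest p values, of which at most 4 are printed. Genes passing in the 6 libraries alone, and Axin2, Lef1, Apcdd1, Lrp5, Lrp6, Kremen1, H2-Aa, C1qb, Cd3e, Gfap, Snap25, Mbp, Cx3cr1, Cldn5 and Gpnmb, were added after their values were seen. Promoters of 13465 tested and 307 passing genes were in the RefSeq table (GRCm38.p6). Some genes named by this rule are not reported here.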

Additional observations from a re-analysis of the deposited data

Results flagged for a closer look

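The difference between genotypes differed between hemispheres for the MHC class I pseudogene H2-T-ps. DKK1 minus wild type was 1.92 in the lesioned and -0.70 in the intact hemisphere on the log2 scale, and the difference of 2.63 ± 0.28 (log2 ± SE) had an unadjusted p of 8.38e-07 and an adjusted p of 0.0148 in edgeR, the smallest of all genes tested. The call was lost without DKK1 lesion 2 or 3, wild-type lesion 2 or any 1 of the DKK1 intact libraries, and limma-voom called 0 genes. Each DKK1 lesion was above each wild-type lesion, and each intact DKK1 library was below each intact wild-type one. The gene lies in a stretch of chromosome 17 where many genes differed on both sides, and near-identical H2 copies make its counts uncertain.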

How the results depend on the processing

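Of 88 named genes past the threshold, 35 passed in all 6 fits that leave out a lesioned library and 31 under every alternative that tested them; with the 6 lesioned libraries alone 48 of 87 were lost and on TPM 22 of 88; no fold change of a gene past the threshold reversed. The lesioned count of 417 was 97 with the 6 libraries alone, 1145 with DESeq2, 661 with limma-voom, 655 under a random-effect replicate block and 239 without genes of the windows, the last of which has fewer genes to test; for the others the cause was not tested. Leaving out 1 library gave 119 to 2551, opposite-hemisphere libraries included. Among these, leaving out DKK1 contralateral 2 or 3 gave 230, wild-type contralateral 1 gave 443 and wild-type contralateral 3 gave 187. The intact count of 155 was 267 with DESeq2 and 94 to 197 with 1 library left out. The count of 1 for the difference between hemispheres was 65 with DESeq2, 4 on TPM, 0 with limma-voom, 2 with the replicate block by number, 2 as a random effect and 288 as a fixed factor; with the fixed factor, leaving out 1 pair gave 1455, 634, 5, 30, 119 and 136. Without 1 library it was 0 to 393, the highest without wild-type lesion 1, then 17 without DKK1 lesion 1 and 4 without wild-type contralateral 3. Replicate number as a block gave 539 lesioned calls. The alternatives of opposite-side libraries, windows and pairs were chosen after seeing the data. Depth limits genes near the floor, such as Dkk1 and the mast cell genes.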
